A study of Mus musculus with 10 samples.

Results

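The clustered protocadherins are a family of cell-surface adhesion proteins encoded side by side on mouse chromosome 18. Their members were taken as every row of the deposited gene table whose symbol begins with Pcdha, Pcdhb or Pcdhg. The rule gave 59 rows of 23358, made up of 15 alpha rows, 22 beta rows and 22 gamma rows. The gamma rows held 12 members of the A type, 7 of the B type and 3 of the C type. The rule uses the symbols only, although it was set with earlier results of these data known.

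Each alpha and gamma protocadherin mRNA joins 1 of many variable first exons, which encode the extracellular and membrane parts of the protein, to constant exons at the 3' end of its cluster, whereas each beta gene stands as a single exon. In neurons each variable promoter is switched on in some cells only, with CTCF and cohesin bringing a distant enhancer to the chosen promoter and DNA methylation silencing the others, and the resulting mix of surface proteins lets a neuron tell its own branches from those of its neighbours. The C-type members are the exception, since they are used far more evenly from cell to cell. EZH2 is the enzyme of Polycomb repressive complex 2 that puts H3K27me3, a mark of silenced genes, on chromatin.

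The cells were MC3T3, a mouse line of pre-osteoblasts derived from skull bone. All of them were kept in an osteogenic medium that contains beta glycerol phosphate and ascorbic acid, under which the line matures along the bone lineage over the experiment. GSK126, an inhibitor of EZH2, was given at 5 µM when this medium was added and again on day 3. It was taken away on day 6, and the vehicle cultures were handled in the same way. The groups were GSK126 on days 3, 6 and 10 and vehicle on days 3, 6 and 10 for RNA, with 1 library each, and H3K27me3 ChIP and input DNA from GSK126 and from vehicle cells 24 hours after the first dose, with 1 library each. The labels do not say that libraries came from separate cultures, so the p-values below measure only the spread between these libraries, and they describe 1 cell line.

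The 6 RNA libraries held between 97291878 and 111537936 counts. Every count in the table was an even number, so a change of 2 counts was the smallest step seen. The osteoblast markers Col1a1, Col1a2, Runx2, Sp7, Alpl, Bglap, Ibsp and Spp1 summed to between 56190 and 77190 CPM, the count scaled to the size of its library, in GSK126 libraries and between 55740 and 70260 CPM in vehicle libraries, most of it from the collagen genes Col1a1 and Col1a2. Each of the 8 had counts in every library, with Bglap lowest at 80 counts in vehicle on day 3. Of these markers 2 passed as higher with GSK126 (Bglap and Ibsp) and 5 as higher on day 10 by edgeR's quasi-likelihood test, so these markers moved with both comparisons below, and their part in the results was not tested. Of the neuron markers, Nefl was at 0 in all 6 libraries, and Stmn2, Syt1 and Rbfox3 never passed 6 counts. The glial gene Olig2 was at 0 in all 6 libraries as well, and the fat cell genes Adipoq and Plin1 reached at most 4 counts. The neuron list summed to between 13.5 and 111 CPM with GSK126 and between 6.57 and 24.2 CPM with vehicle, nearly all of it from the tubulin gene Tubb3. Tubb3 was higher with GSK126 (log2 difference 1.76, adjusted p = 0.0333 by edgeR's quasi-likelihood test), and its part in the results was not tested. In bulk RNA of this kind, fewer cells that use a gene and less RNA per cell cannot be told apart.

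The clusters follow each other on chromosome 18 in the mm10 build. The alpha cluster spanned chr18:36930285-37187660 (257.4 kb), the beta cluster chr18:37264998-37521419 (256.4 kb) and the gamma cluster chr18:37661945-37841872 (179.9 kb). The 14 alpha rows other than the read-through row Pcdha4-g ended within 10 bases of each other, and so did all 22 gamma rows because they share their last exons, while the beta genes each had an end of their own. The length that the table gives an alpha or gamma row includes the shared exons (5206 to 5422 bases for alpha, 4480 to 5079 bases for gamma). Yet several alpha rows were at 0 while a neighbour with the same last exons had at least 1374 counts, so reads on shared exons were not credited to every member. The assignment of reads on shared exons was not stated, so levels per kb of alpha and gamma members are uncertain relative to beta members, in a direction that these counts do not show. The beta genes resemble each other closely in sequence, so the counts of single beta genes carry the same uncertainty.

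Expression was concentrated in a few members. The highest mean level belonged to the gamma C-type member Pcdhgc3 with 22.9 CPM per kb over the 6 libraries. Pcdhga3, an A-type gamma member, had 8.12 CPM per kb. The alpha C-type member Pcdhac2 averaged 8.13 CPM per kb, but this rested on 1 library with 31.1 CPM per kb, and over the other 5 libraries (2.56 to 4.76 CPM per kb) it averaged 3.54, below Pcdhga3, Pcdhb17, Pcdhb15 and Pcdhb14. The highest beta members were Pcdhb17 with 4.79, Pcdhb15 with 4.30, Pcdhb14 with 3.71 and Pcdhb21 with 2.57 CPM per kb. The 18 gamma A and B members other than Pcdhga3 had mean levels between 0.0327 and 0.344 CPM per kb, with a median of 0.0512 CPM per kb. Pcdhgc3 took between 65.9% and 73.0% of the gamma counts of a library and Pcdhga3 between 21.1% and 25.7%.

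**Figure D1:**
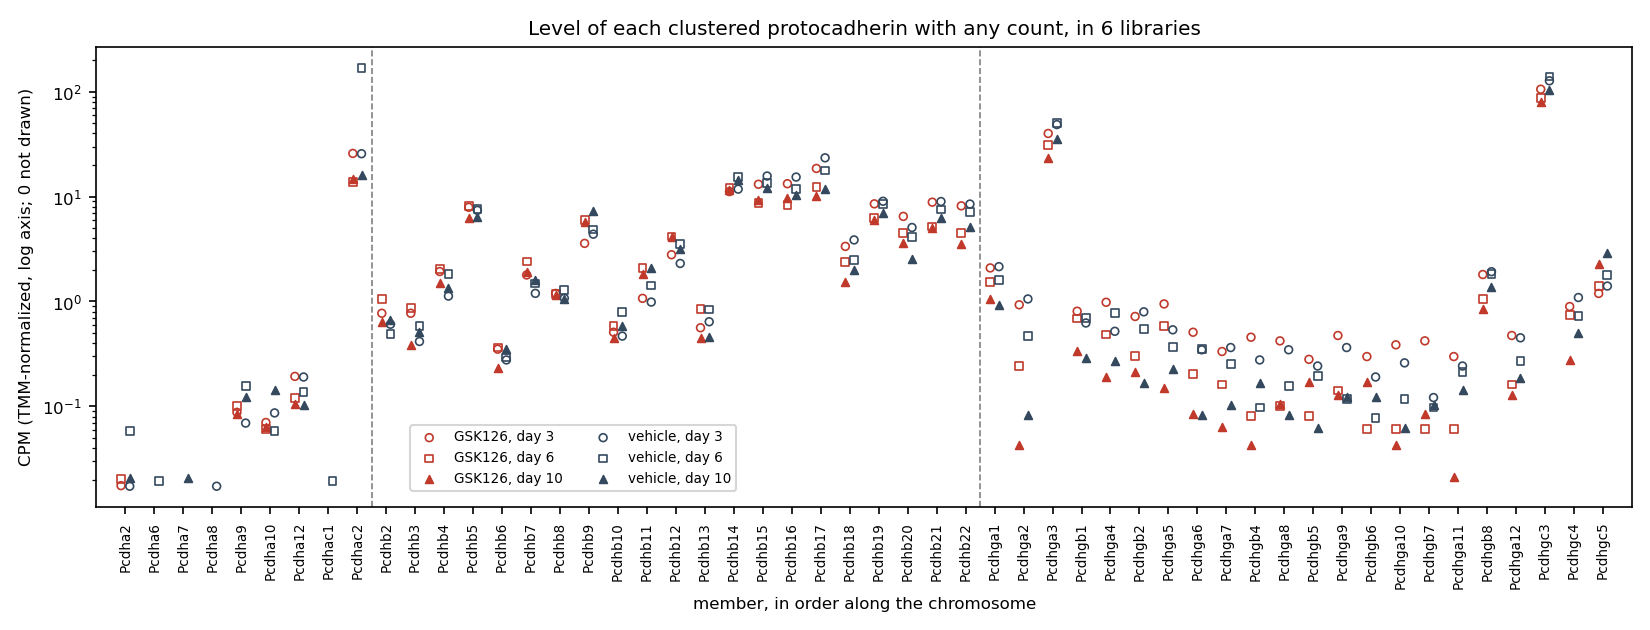
The level of each of the 52 members with any count, in CPM on a log axis, with 1 point for each of the 6 libraries (GSK126 in red to the left, vehicle in dark blue to the right, and the day by the shape of the point). The alpha cluster has 1 member above 1 CPM, Pcdhac2, whose vehicle day 6 point stands far above its other points, most beta members from Pcdhb14 onwards lie above most of those before it, and in the gamma cluster Pcdhga3 and Pcdhgc3 stand above the rest.

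A total of 7 members had no count in any library, namely Pcdha1, Pcdha3, Pcdha4, Pcdha4-g, Pcdha5, Pcdha11 and Pcdhb1. A count of 0 allows a level of up to 0.0538 to 0.0617 CPM, which is what 3 fragments of 2 counts each would give in these libraries, counting error only. This limit uses the raw library totals, whereas the levels of members use TMM-normalized library sizes. Pcdha2, Pcdha6, Pcdha7, Pcdha8 and Pcdhac1 had no more than 6 counts in any library. Of the 59 members, 46 passed the filter on low counts and were tested, 3 of them alpha (Pcdha9, Pcdha12 and Pcdhac2), 21 beta and all 22 gamma.

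The alpha cluster in these cells amounted to Pcdhac2 alone. This C-type member (chr18:37143969-37187657) carried between 97.5% and 99.7% of the alpha counts of each library. The other alpha C-type member, Pcdhac1, had 2 counts in the vehicle library of day 6 and 0 in the other 5 libraries. Pcdha12 had 22, 12 and 10 counts on days 3, 6 and 10 with GSK126, and 22, 14 and 10 counts with vehicle. Pcdha9 had 10, 10 and 8 counts with GSK126 on these days, against 8, 16 and 12 counts with vehicle. Pcdha10 had 8, 6 and 6 counts with GSK126, against 10, 6 and 14 counts with vehicle, and was not tested. These 3 variable members lay close to the limit of detection in both treatments.

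Pcdhac2 was the 1 member whose reads jumped in a single library, to at least 4 times the next library and at least 1 CPM. It had 2940, 1374 and 1374 counts on days 3, 6 and 10 with GSK126, and 2960, 17298 and 1546 counts on these days with vehicle. The vehicle library of day 6 thus held 169 CPM, which was 6.54 times the next highest library, while the GSK126 and vehicle libraries lay side by side on days 3 and 10. Of all genes with a level of at least 1 CPM in their highest library, 0.319% had a highest library at least 4 times the next, and 0.0327% had it in the vehicle library of day 6. The jump did not extend to other alpha rows, which together had 42, 30 and 24 counts with GSK126 on days 3, 6 and 10, and 44, 46 and 40 counts with vehicle. The alpha rows share their last exons with Pcdhac2, and whether the extra reads lay on the shared exons or on its own first exon cannot be told from counts per gene. Each day and treatment has 1 library, so no error can be given for this value. Below both cuts, the gamma member Pcdhgb7 had 48, 6 and 8 counts on days 3, 6 and 10 with GSK126. With vehicle it had 14, 10 and 10 counts, and its GSK126 day 3 level was 3.47 times the next highest.

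**Figure D2:**
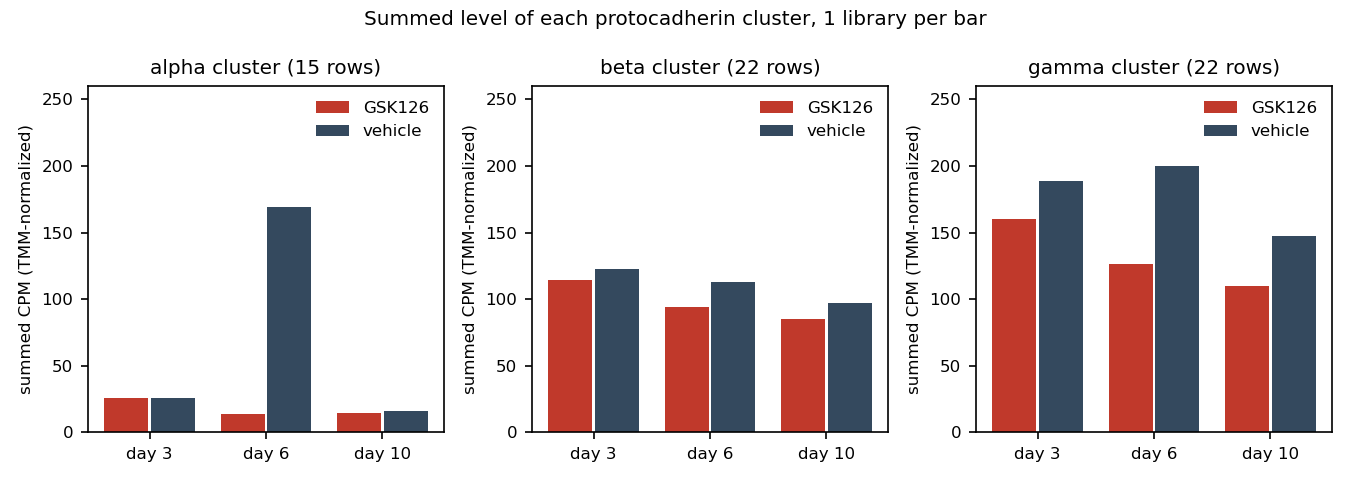
Summed level of all rows of each cluster, in TMM-normalized CPM from 0, with 1 library per bar and GSK126 to the left of vehicle on each day. The alpha sum is 169 CPM in the vehicle library of day 6 and at most 26.2 CPM elsewhere, the beta and gamma sums are lower with GSK126 on each day, and gamma has the widest gap on day 6.

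More of the tested members passed for culture time than for treatment, and the same held for all genes tested. For GSK126, 0.272% of all genes passed as lower and 1.01% as higher. Across both treatments, 17 of 46 tested members (37.0%) were lower on day 10 than on day 3 and 1 was higher at an adjusted p below 0.05 (edgeR's quasi-likelihood test, Benjamini-Hochberg over 14344 genes), against 12.5% lower and 14.1% higher among all genes tested. The remaining 28 members did not pass. The ribosomal RNA row Rn45s took 7.47% of the counts with GSK126 and 7.24% with vehicle on day 10, against 4.44% and 4.37% on day 3, and its part in the day 10 differences was not tested. The log2 difference was negative in 38 of the 46 (82.6%, against 50.6% of all genes), with a median of -0.79 over the tested members and -0.01 over all genes. In 33 of the 46 members (71.7%) both day 10 libraries lay below both day 3 libraries, which held for 33.7% of all genes. By day 6 none of the 46 had passed the same test, against 0.237% of all genes lower and 0.516% higher. At an unadjusted p below 0.05, 15 of the 46 members passed, 13 lower and 2 higher. Of the 14344 genes 1792 were lower and 1969 higher at this threshold (26.2% in either direction).

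Most of the falls were in the gamma A members, of which 10 of 12 passed with lower levels on day 10. Of the 7 B members 1 passed, and all 19 A and B members had both day 10 libraries below both day 3 libraries. The median log2 difference of the 19 was -1.72. The 18 of them other than Pcdhga3 summed to 1440, 600 and 366 counts on days 3, 6 and 10 with GSK126, and to 1248, 846 and 442 counts with vehicle. Their summed CPM was 3.26 times lower on day 10 than on day 3 with GSK126 and 2.37 times lower with vehicle. Several of these members are low, so that single values rest on a few fragments.

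Pcdhga2 (chr18:37669105-37841870) fell the most of all members. It had 106, 24 and 4 counts on days 3, 6 and 10 with GSK126, and 122, 48 and 8 counts with vehicle. Each step down the days was seen in both treatments, and the fitted day 10 level was 16.1 times lower than that of day 3 (log2 difference -4.01, SE 0.46, adjusted p = 0.0116 by edgeR's quasi-likelihood test). Pcdhga10 had 44, 6 and 4 counts with GSK126 and 30, 12 and 6 counts with vehicle, a log2 difference of -2.61 (SE 0.61). Pcdhga6 had 58, 20 and 8 counts with GSK126 and 40, 36 and 8 counts with vehicle, a log2 difference of -2.34 (SE 0.54). In both genes the day 10 libraries held no more than 8 counts in either treatment.

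Pcdhga7 had 38, 16 and 6 counts with GSK126 on days 3, 6 and 10, and 42, 26 and 10 counts with vehicle, a log2 difference of -2.07 between day 10 and day 3 (SE 0.47). Pcdhga8 had 48, 10 and 10 counts with GSK126 and 40, 16 and 8 counts with vehicle, a log2 difference of -2.01 (SE 0.49). The B-type member that passed was Pcdhgb2 (chr18:37689859-37841872), with 82, 30 and 20 counts with GSK126 and 92, 56 and 16 counts with vehicle, a log2 difference of -1.99 (SE 0.43). For these 3 members and for Pcdhga10 and Pcdhga6 the adjusted p of edgeR's quasi-likelihood test lay between 0.0283 and 0.0363, and day 6 fell between the other days or close to day 10. With no filter on low counts the adjusted p of Pcdhga10 was 0.0542 and that of Pcdhga8 0.0579, and by DESeq2 that of Pcdhga8 was 0.0508, so these calls ended there. With counts divided by 2 neither of the pair passed the filter.

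The members with the highest levels in the gamma cluster moved less. Pcdhga3 (chr18:37674335-37841872) had 4556, 3064 and 2192 counts on days 3, 6 and 10 with GSK126, and 5614, 5124 and 3458 counts with vehicle. It was lower on day 10 by 0.62 on the log2 scale (a log2 difference of -0.62, SE 0.13, adjusted p = 0.0246 by edgeR's quasi-likelihood test), and its vehicle level held until day 6. Pcdhga1, the first gamma gene, had 238, 152 and 100 counts with GSK126 and 248, 164 and 90 counts with vehicle (log2 difference -1.09, SE 0.23, adjusted p = 0.0266 by edgeR's quasi-likelihood test). The treatments ran level with each other in Pcdhga1 on each day.

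The 3 gamma C-type members went different ways with time. Pcdhgc3 (chr18:37806410-37841872), a member also known from cells other than neurons, had 12036, 8674 and 7572 counts on days 3, 6 and 10 with GSK126, and 14678, 14308 and 10036 counts with vehicle. Its log2 difference of -0.35 between day 10 and day 3 did not pass (SE 0.12, adjusted p = 0.0826 by edgeR's quasi-likelihood test). Pcdhgc4 (chr18:37815079-37841872) fell, with 102, 74 and 26 counts with GSK126 and 126, 74 and 48 counts with vehicle (log2 difference -1.38, SE 0.35, adjusted p = 0.0402 by the same quasi-likelihood test). Pcdhgc5 (chr18:37819546-37841872) was the 1 member that rose, with 136, 138 and 214 counts with GSK126 and 162, 184 and 278 counts with vehicle (log2 difference 0.98, SE 0.21, adjusted p = 0.0281 by the same quasi-likelihood test). Pcdhgc4 and Pcdhgc5, neighbours that share their last exons with each other and with Pcdhgc3, thus changed in opposite directions.

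**Figure D3:**
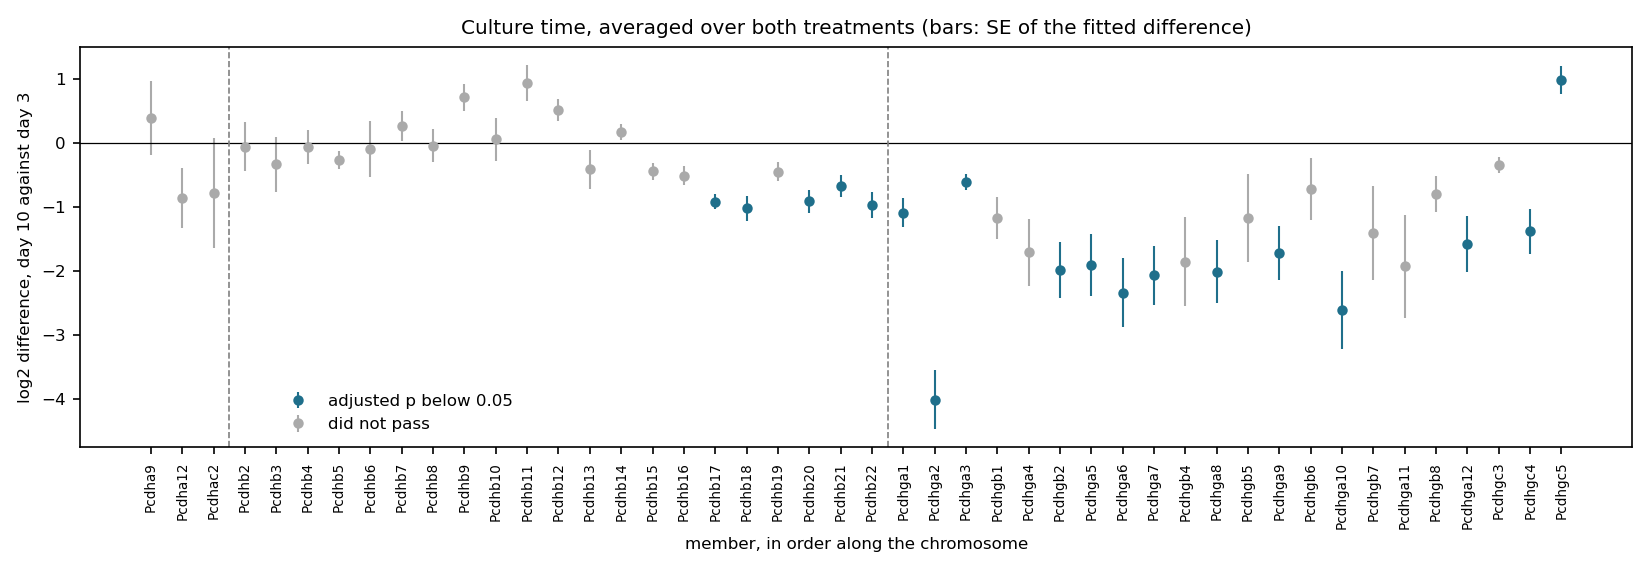
Fitted log2 difference between day 10 and day 3 for each of the 46 tested members in chromosome order, averaged over both treatments, with bars of 1 SE and members past an adjusted p of 0.05 in blue. All 19 gamma A and B members lie below 0 with Pcdhga2 lowest at -4.01, Pcdhgc5 is at 0.98, and the beta members that pass lie at the end of that cluster.

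In the beta cluster 5 of 21 tested members passed, all lower on day 10, and all of them lay in the last stretch of the cluster from Pcdhb17 to Pcdhb22. Pcdhb17 (chr18:37485021-37488290) had 2114, 1216 and 956 counts on days 3, 6 and 10 with GSK126, and 2704, 1816 and 1156 counts with vehicle (log2 difference -0.92, SE 0.12, adjusted p = 0.0127 by edgeR's quasi-likelihood test). Pcdhb21 had 1008, 514 and 470 counts with GSK126 and 1036, 774 and 606 counts with vehicle (log2 difference -0.68, SE 0.17, adjusted p = 0.0408 by edgeR's quasi-likelihood test). In both, each treatment was lower on day 10 than on day 3. Pcdhb18, Pcdhb20 and Pcdhb22 had log2 differences of -1.03, -0.92 and -0.98.

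The other beta members ranged on either side of 0. Pcdhb14 (chr18:37447657-37451094) had 1272, 1208 and 1088 counts with GSK126 on days 3, 6 and 10, and 1360, 1586 and 1398 counts with vehicle, and its log2 difference between day 10 and day 3 was 0.17 (SE 0.13). Pcdhb15 (chr18:37473546-37476340) had 1494, 856 and 874 counts with GSK126, against 1814, 1374 and 1160 counts with vehicle, and a log2 difference of -0.45 (SE 0.14) that did not pass. The beta median was -0.27 on the log2 scale. Pcdhb11, Pcdhb9 and Pcdhb12 had the highest values of the cluster, 0.93, 0.71 and 0.51, and none of them passed.

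The day 10 calls rested on 2 residual degrees of freedom, and most calls were lost when a library of day 3 or day 10 was left out. Without the GSK126 day 3 library or without the vehicle day 10 library 0 members passed as lower, and without the vehicle day 3 library or without the GSK126 day 10 library 2 passed. The rise of Pcdhgc5 passed in none of these 4 fits, which leave 1 residual degree of freedom, although each kept its direction, with log2 differences between 0.92 and 1.04. Pcdhga2 remained between -3.66 and -4.42 on the log2 scale in them and was among the calls in the fits without vehicle day 3 and without GSK126 day 10.

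The comparison of GSK126 with vehicle addressed whether expression of these genes differs in cultures given the EZH2 inhibitor. The last of the 3 days came after the inhibitor had been taken away. The fit averages over these days, so it is not a test of expression under inhibition alone. None of the 46 tested members passed at an adjusted p below 0.05 by edgeR's quasi-likelihood test over the 3 days, against 1.01% of all genes higher and 0.272% lower. At an unadjusted p below 0.05 there were 5 lower members, Pcdhb15, Pcdhb17, Pcdhb22, Pcdhga3 and Pcdhgc3, and 1 higher, Pcdhb7 (10.9% and 2.17% of the members, against 9.75% lower and 9.86% higher among all genes). DESeq2, a different count test, called 4 lower and 0 higher members (8.70% lower, against 4.43% of all genes lower and 4.8% higher). The log2 difference was negative in 28 of 46 members (60.9%, against 50.2% of all genes), with a median of -0.10 over the tested members and -0.0008 over all genes. No member had counts with GSK126 and none with vehicle.

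The members with the lowest p were the highest gamma members, Pcdhga3 and Pcdhgc3. For Pcdhga3, with the counts given above, GSK126 was below vehicle on each of the 3 days, and the log2 difference was -0.53 (SE 0.10), with an adjusted p of 0.0766 by edgeR's quasi-likelihood test and 0.00194 by DESeq2. For Pcdhgc3 GSK126 was likewise below vehicle on each day, with a log2 difference of -0.44 (SE 0.10), an adjusted p of 0.0951 by edgeR's quasi-likelihood test and 0.0100 by DESeq2. The gamma sum was 160, 127 and 110 CPM with GSK126 on days 3, 6 and 10, against 189, 200 and 147 CPM with vehicle. The log2 ratio of these sums was -0.24, -0.66 and -0.42 on the 3 days, with 1 library on each side.

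Pcdhac2 had a log2 difference of -1.13 between GSK126 and vehicle with an SE of 0.78, and did not pass (adjusted p = 0.498 by edgeR's quasi-likelihood test). The vehicle day 6 library decided this value, since it was -0.06 without the day 6 pair, -1.88 without the day 3 pair and -1.79 without the day 10 pair. The alpha sum followed the same gene, with 26.2, 14.2 and 14.8 CPM with GSK126 on days 3, 6 and 10 and 26.0, 169 and 16.4 CPM with vehicle. Without Pcdhac2 the log2 ratio of the alpha sums on day 6 was -0.57 and not -3.58, on counts of 30 with GSK126 and 46 with vehicle. The level of Pcdhac2 in the pairs of days 3 and 10 differed little between treatments.

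**Figure D4:**
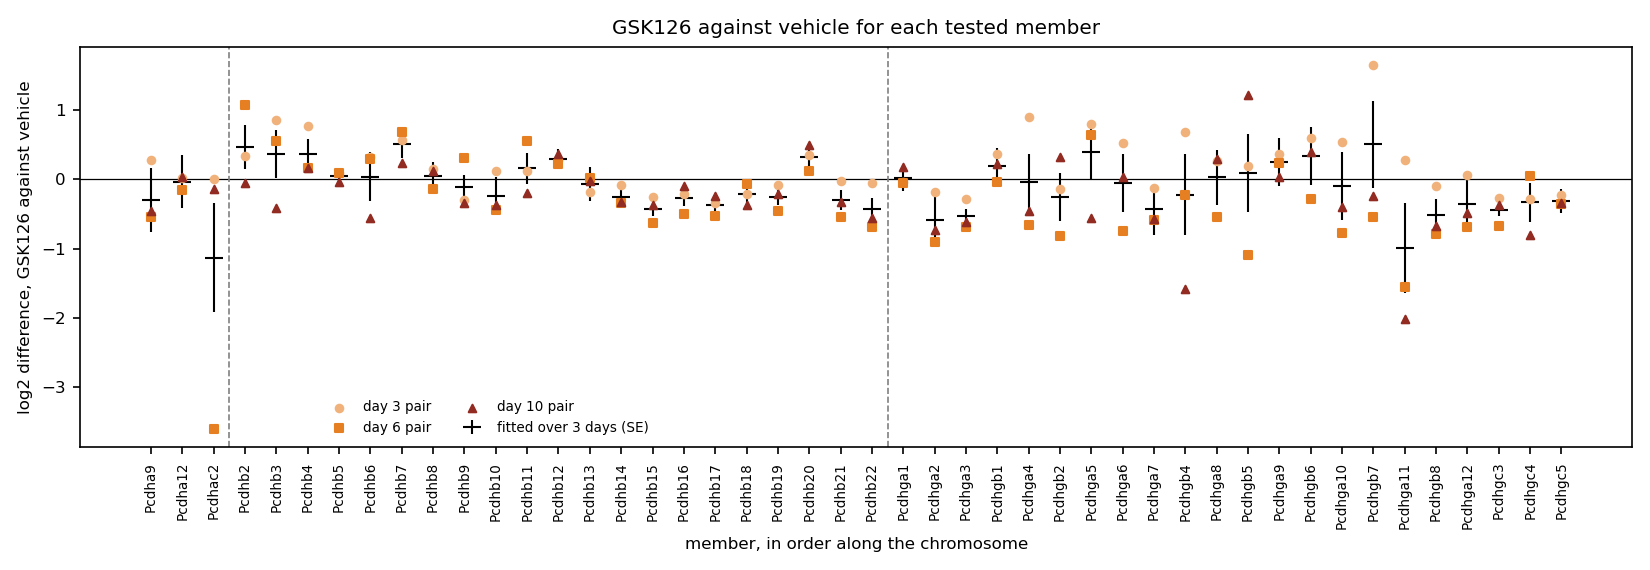
Log2 difference between GSK126 and vehicle for each of the 46 tested members in chromosome order, as the pair of libraries of each day (coloured points) and as the fit over 3 days with bars of 1 SE (black). The day 6 point of Pcdhac2 is at -3.60, the fitted values of 9 of 12 beta members before Pcdhb14 lie above 0, and those from Pcdhb14 onwards lie below 0 apart from Pcdhb20.

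Along the beta cluster the sign of the difference changed with position. Of the 12 tested members before Pcdhb14, 9 had a positive log2 difference with GSK126 (median 0.11). Of the 9 members from Pcdhb14 to Pcdhb22, 8 had a negative one (median -0.27), Pcdhb20 being the exception. Across the 21 tested beta genes the log2 difference and the order along the chromosome had a Pearson r of -0.68 and a Spearman rho of -0.72, given here as a description since the genes share the same 6 libraries. The r within the pairs was -0.62 on day 3, -0.74 on day 6 and -0.13 on day 10. Level also followed position, with an r of 0.60 between order and the log2 of mean CPM per kb, and so did the day 10 difference, with an r of -0.57. Across the 19 gamma A and B genes the r of the GSK126 difference with order was -0.04. The boundary at Pcdhb14 was chosen after the values were seen and was not tested.

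In sums, the beta rows before Pcdhb14 had 2648, 2952 and 2324 counts on days 3, 6 and 10 with GSK126, and 2410, 2572 and 2468 counts with vehicle. The beta rows from Pcdhb14 onwards had 10422, 6348 and 5678 counts with GSK126, and 11742, 9042 and 6928 counts with vehicle. The first stretch was thus higher with GSK126 on days 3 and 6 and not on day 10, and the second was lower on each day, with log2 ratios of -0.15, -0.46 and -0.25.

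The sign held on all 3 days for 19 members. Lower with GSK126 on each day were 14 of 46 (30.4%, against 22.7% of all genes), namely Pcdhb14 to Pcdhb19, Pcdhb21, Pcdhb22, Pcdhga2, Pcdhga3, Pcdhga7, Pcdhgb8, Pcdhgc3 and Pcdhgc5. Higher on each day were 5 (10.9%, against 22.1% of all genes), namely Pcdhb4, Pcdhb7, Pcdhb12, Pcdhb20 and Pcdhga9. Pcdhb7 had 204, 238 and 180 counts with GSK126 on days 3, 6 and 10, against 138, 152 and 156 counts with vehicle, and its log2 difference of 0.51 (SE 0.19) had an adjusted p of 0.237 by edgeR's quasi-likelihood test.

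Few members reached a 2-fold difference within a day, and the same held for all genes at such levels. Whether the members differ from all genes in this was not tested. Among the members with at least 1 CPM in either library, 0 of 24 did so on day 3 and 0 of 22 on day 10, against 1.51% higher and 0.162% lower among all such genes on day 3 and 3.07% higher and 2.44% lower on day 10. On day 6, of 23 members, Pcdhb2 was higher and Pcdhac2 lower, against 4.15% and 2.06% of all genes. Pcdhb2 had 88, 104 and 60 counts with GSK126 on days 3, 6 and 10 and 70, 50 and 64 counts with vehicle, so that its gap was seen on day 6 only. A fold of this kind comes from 1 library on each side and has no replicate check.

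The change of the GSK126 difference after the inhibitor was taken away, day 10 set against days 3 and 6, passed for 0 of 46 members and for 0.0% of all genes by edgeR's quasi-likelihood test. At an unadjusted p below 0.05 it was 0 of 46 members, against 7.01% of all genes, and DESeq2 called 0 members. This comparison had 1 residual degree of freedom.

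In the authors' lists, H3K27me3 islands covered at most 3.11% of the span of a cluster. An island is a stretch where ChIP reads exceed input reads, and its fold and reads are the authors' own. Chromosome 18 as a whole held 1.31% of the GSK126 islands and 1.73% of the vehicle islands. Whether the clusters differ in this from the rest of the chromosome was not tested. There was 1 ChIP library per treatment and no test of a difference between the lists. In the GSK126 list 1 island lay in the alpha span (8.0 kb covered), 2 in the beta span (7.8 kb) and 1 in the gamma span (3.2 kb). The vehicle list had 0, 2 and 0 islands in these spans, covering 5.6 kb of beta. The lists differ as wholes, with 24947 islands of a median 5.6 kb and a median fold of 2.04 in GSK126 and 34498 islands of a median 3.4 kb and a median fold of 2.48 in vehicle, so an island found in 1 list only does not show a gain or a loss.

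The alpha island of the GSK126 list, chr18:37118001-37126000, lay between the starts of Pcdhac1 and Pcdhac2, with 105 ChIP reads, 75 input reads and a 2.33-fold enrichment. In the beta span the island chr18:37313001-37316200 of the GSK126 list (58 ChIP reads, 3.33-fold) overlapped chr18:37314201-37318000 of the vehicle list (41 ChIP reads, 4.31-fold), between Pcdhb4 and Pcdhb5. The GSK126 list had a further island between Pcdhb5 and Pcdhb6 (chr18:37327001-37331600, 54 ChIP reads and 45 input reads). The vehicle list had one 1.7 kb before the start of Pcdhb15 (chr18:37470001-37471800, 26 ChIP reads, 8.74-fold). The gamma island of the GSK126 list, chr18:37689001-37692200, covered the start of Pcdhgb2, with 50 ChIP reads, 18 input reads and a 4.62-fold enrichment. The members with an island within 2 kb of the start were therefore Pcdhgb2 in GSK126 cells and Pcdhb15 in vehicle cells.

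Outside the spans, both lists had an island 23.3 kb before Pcdha1 (chr18:36902801-36907000, 4.79-fold, in GSK126 and chr18:36904801-36907000, 12.6-fold, in vehicle). The GSK126 list also had 2 islands between the beta and gamma clusters, chr18:37530001-37537000 with a 5.15-fold and chr18:37569001-37574400 with a 2.37-fold enrichment.

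**Figure D5:**
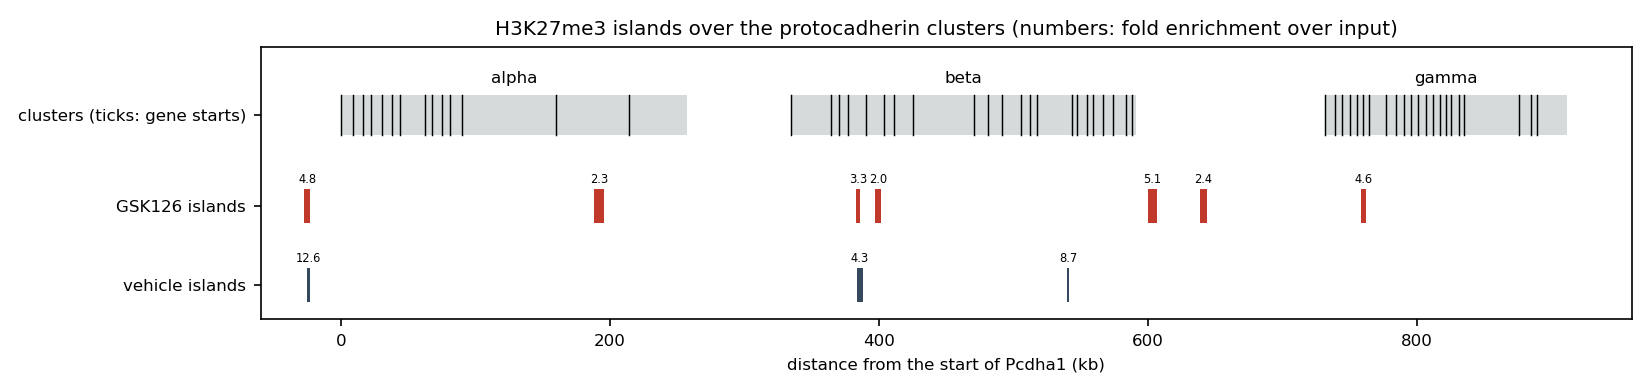
Islands of the GSK126 list (upper row) and of the vehicle list (lower row) beside the 3 clusters, drawn to scale as distance in kb from the start of Pcdha1, with gene starts as ticks and the authors' fold over input as numbers. The 2 lists share the islands before Pcdha1 and between Pcdhb4 and Pcdhb5, and most gene starts of the clusters have no island.

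By gene body, 19 of 58 members overlapped an island in the GSK126 list, the read-through row being left out. The share was 14.8% of all genes and 11.7% of the genes on chromosome 18, the members among them. In the vehicle list it was 0 of 58, against 17.1% of all genes and 10.5% of those on chromosome 18. The 19 come from 2 islands, since the alpha island lies within the nested gene bodies of 13 alpha members and the gamma island within those of 6 gamma members, so they are not 19 separate observations. With stricter islands (the authors' adjusted p below 1e-10 and a fold of at least 2) the counts were again 19 and 0. The shares were 7.78% and 9.31% of all genes, and 9.46% and 7.36% of those on chromosome 18. Within 2 kb of the gene start the count was 1 of 58 in each list, against 10.0% of genes with a known strand in GSK126 and 12.7% in vehicle. Those shares come almost wholly from other chromosomes. The 59 genes of chromosome 18 with a strand here were the family's own rows, the read-through row among them, all taken as plus strand. No member had most of its body covered in either list, which held for 4.91% of all genes in GSK126 and 4.94% in vehicle, but for 0.525% of the genes on chromosome 18 in either list. The silent alpha members thus had no island at their start in either list.

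Genes around the family were read beside it. Of 13 non-clustered protocadherins, which lie outside the clusters, 12 were in the table and 4 were tested, with 0 passing for GSK126 and 2 lower on day 10, Pcdh18 and Pcdh19. For this and the next lists the shares of all genes were 0.272% lower and 1.01% higher for GSK126, and 12.5% lower and 14.1% higher on day 10. Pcdh19, an adhesion protein encoded on the X chromosome, had 7126, 2954 and 1352 counts with GSK126 on days 3, 6 and 10 and 9852, 6460 and 2934 counts with vehicle (day 10 log2 difference -1.82, SE 0.18, adjusted p = 0.0103 by edgeR's quasi-likelihood test). GSK126 was below vehicle on each day in Pcdh19 too, with a log2 difference of -0.87 that did not pass (adjusted p = 0.0611 by edgeR's quasi-likelihood test).

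Of 16 genes that act in protocadherin promoter choice or silencing, such as Ctcf, cohesin subunits, Smchd1 and the DNA methyltransferases, 0 passed for GSK126, and 5 were lower and 0 higher on day 10. These 5 were the histone methyltransferase genes Ehmt1 and Setdb1, the cohesin loader Nipbl, the cohesin release factor Wapal and the zinc finger gene Wiz, with log2 differences between -0.33 and -0.52. Of 12 signalling and cleavage partners of the proteins, 0 passed for GSK126, and Wasf1, Wasf2, Adam10 and Ptk2b were lower on day 10. Of 13 genes that flank the clusters on chromosome 18, 0 passed for GSK126, and Ndufa2, Wdr55 and Zmat2 were higher and Diap1 lower on day 10. Their log2 differences were between 0.36 and 0.56 for the first 3 genes and -0.46 for Diap1.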

How the data were processed

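RNA libraries and H3K27me3 ChIP and input libraries of MC3T3 cells were used as the authors deposited them. Per the submitters' processing notes, the tools were HTSeq 0.5.3p9 and TopHat2 2.0.6, SICER 1.1 and BWA 0.5.9, and CASAVA 1.9, with mm10 as the build. Which gene annotation and counting mode were used was not stated, nor were the settings of SICER. The deposited table holds raw counts per gene, which were tested, and RPKM values by the authors, used only to check the count columns. The deposited island lists hold read counts of ChIP and input, a fold (ratio) over input and a p-value with its adjusted value per island, per the layout of the files. The RNA kit named in the labels does not mark strand, so reads from overlapping antisense transcripts cannot be told apart.

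Counts were normalized by TMM and fitted over the whole table in edgeR 4.0.16 (R 4.3.3) with treatment and day as factors, after filterByExpr. Of 23358 rows, 14344 genes were tested and p-values were adjusted over them by Benjamini-Hochberg at 0.05. The biological coefficient of variation was 14.8%, with 2 residual degrees of freedom, or 1 for the removal term. DESeq2 1.42.0, other size factors, no filter, halved counts, no day term and fits without a library or a pair were run as alternatives. Sums and pairs of single libraries were given with no test.

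The members and gene lists were chosen with earlier results of these data known. Members named with every library's value were the 5 C-type members, the 4 highest of each cluster per kb, the 6 largest falls and the rise past the threshold on day 10, and members whose highest library was at least 4 times the next and at least 1 CPM. Pcdhb2, Pcdhb7, Pcdhgb7 and the members named by sign or range were added after their values were seen. Members lie on chromosome 18, and no sequence is reported here.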

Additional observations from a re-analysis of the deposited data

How the results depend on the processing

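The GSK126 fit already pairs libraries by day, and the labels carry no replicate numbers for another pairing. Of the GSK126 calls, the 0 lower members by edgeR's quasi-likelihood test became 4 by DESeq2 (Pcdhb15, Pcdhb17, Pcdhga3 and Pcdhgc3) and stayed at 0 with other size factors, no filter, halved counts, no day term or any pair of libraries left out. Over all genes edgeR called 39 lower and DESeq2 635. On day 10, the 1 higher member became 3 by DESeq2, and fits without 1 library gave 0 higher and between 0 and 2 lower members in place of 17. Calls over all genes also fell in the fits without 1 library, and the part that fewer samples or the library left out had in this was not tested. With other size factors 17 lower members passed, with halved counts 16, with no filter 13 and by DESeq2 17. Among the named calls, Pcdhga8 and Pcdhga10 were lost with no filter and Pcdhga8 by DESeq2. For Pcdhac2 the day 10 log2 difference, not called, was 0.42 without the GSK126 day 3 library and -0.78 with all libraries. The log2 ratios of the sums moved as follows. For alpha, day 6 was -0.57 without the jumping member and -0.50 without the C-type members, and day 10 was -0.70 in both cases, in place of -0.14. For gamma, day 3 was -0.18 and day 10 was -0.57 without the C-type members, and day 10 was -0.47 with library sizes in place of TMM. The cause of these shifts in gamma was not tested. Members with an island in the GSK126 list numbered 0 when most of the body had to be covered and 1 within 2 kb of the start, in place of 19, and those in the vehicle list 1 within 2 kb of the start, in place of 0. Of 140 combinations of setting and named member on day 10, 91 kept their side of the threshold, 48 lost the call and 1 gained it. Of 138 for GSK126, 134 kept their side and 4 gained a call. Depth limits the low gamma and alpha members, whose day 10 values rest on a few fragments, and the 1 library per treatment and day leaves no replicate check of any single day.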
